A study of Mus musculus with 4 samples.

Results

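The tripartite motif (Trim) genes are described here in mouse neutrophils that lack serum response factor (SRF). They were taken from the authors' deposited table of genes by name: a row whose symbol is Trim, a number and an optional letter, and whose test had status OK. This gave 39 Trim genes of the 65 that the table lists by such a symbol, and of 12634 genes tested in all. The other 26 were not tested, and 9 of these were listed at 0 in both genotypes. Proteins of the same family with other symbols, such as Pml, are given apart.

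Most TRIM proteins are ubiquitin ligases built from a RING finger, which recruits a ubiquitin-loaded E2 enzyme, 1 or more B-box zinc fingers and a coiled coil. The domain at the carboxyl end then sets what is bound, and it is a SPRY domain in most members and NHL repeats, a COS box or a PHD finger with a bromodomain in others. In myeloid cells the family is best known for its part in antiviral defence: several members are induced by interferon, and some ubiquitinate the sensors of viral RNA or DNA and their adaptors. SRF is a transcription factor of the CArG box, best known for its actin and immediate-early targets.

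Messenger RNA was sequenced from bone marrow neutrophils gated for side scatter, 7/4 antigen and Gr1, each high. There were 2 Srf KO samples and 2 WT samples. The labels give the genotype and, in the titles, a number for each sample without saying what it counts. The Srf allele, any Cre driver, and the age, sex and strain of the mice are not given in the sources used here. By its title the series asks about SRF in neutrophil migration during inflammation.

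The authors' deposited tables hold 1 FPKM value (mapped fragments per length of transcript and size of library) for each genotype, pooled over its samples. No value of a single sample was used, so the read depth is unknown, no spread between samples can be given and overlap between the groups cannot be judged. Log2 folds are given throughout as Srf KO over WT. The ± is an implied standard error, obtained by dividing the authors' fold by their statistic. A gene is called higher or lower where the authors' q-value, a p-value adjusted over all tested rows of the table by the Benjamini-Hochberg method, is at most 0.05. The titles number the samples apart, but nothing in the labels says in words that those of a genotype came from separate mice. The p-values rest on the authors' model, whose settings are not given. Any spread between samples that enters that model may be technical. Because FPKM is scaled by length, levels can be set side by side between genes.

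In the authors' deposited table Srf itself stood at 0.439 FPKM in Srf KO neutrophils, against 13.7 FPKM in WT neutrophils, which is 3.19% of the WT level. Of the 12 neutrophil markers found in the authors' deposited table, only 7 were tested, of which 4 were called lower (57.1%) and 1 higher (14.3%). For these and the marker lists below, the share of all tested genes was 17.8% called lower and 17.7% called higher. Camp, Ltf, Ngp, S100a8 and S100a9 had too many reads for the authors' software, so their listed values cannot be used. Among markers of other cells, 13 of 16 erythroid genes, 12 of 13 T and NK cell genes, 4 of 8 B cell genes, 6 of 10 platelet genes and 8 of 10 macrophage genes in the authors' deposited table were called higher, and 2 of the macrophage genes lower. Their summed levels in the authors' deposited table were 285 FPKM in Srf KO and 179 FPKM in WT for the erythroid list, 122 and 52.1 FPKM in the same order for T and NK cells, 175 and 119 FPKM for B cells, 66.2 and 23.2 FPKM for platelets, and 140 and 117 FPKM for macrophages. No marker of these 5 lists was at 0 in both genotypes, and the platelet gene Gp6 was listed at 0 in WT. Their part in the differences of the Trim genes was not tested. In bulk samples like these, fewer cells of a type and less RNA per cell cannot be told apart.

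Trim genes were called in both directions in Srf KO neutrophils. Of the 39 Trim genes in the authors' deposited table, 6 were called higher and 7 lower, 13 in all or 33.3%, against 35.5% of all tested genes called either way. Taken by direction, 15.4% of the Trim genes were called higher, against 17.7% of all tested genes, and 17.9% were called lower, against 17.8%. The share of Trim genes called was therefore near the background in both directions. The genes called higher were Trim10, Trim24, Trim59, Trim44, Trim27 and Trim37, and those called lower were Trim56, Trim3, Trim30b, Trim23, Trim33, Trim12c and Trim25. With folds centred on the median of all tested genes the split was 5 higher and 9 lower.

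Changes were mostly small. The median log2 fold was -0.14 over the Trim genes, with quartiles at -0.40 and 0.25, beside 0.08 over all tested genes, with quartiles at -0.40 and 0.54. With the running median of the folds over transcript length subtracted, it was -0.26 over the Trim genes and -0.01 over all genes. No test of a shift of the whole family was run. Within 2-fold of WT lay 36 of the 39 Trim genes (92.3%) in the authors' deposited table, beside 83.1% of all tested genes that have a fold. Trim56 and Trim3 were the Trim genes called and at least 2-fold lower, 5.13% of the family beside 6.45% of all tested genes, and Trim10 was the 1 called and at least 2-fold higher, 2.56% beside 7.13%. The implied standard error of a Trim gene had a median of 0.23 and ran between 0.18 and 1.51, and the smallest absolute log2 fold called was 0.49. Trim62 had the largest uncalled fold in the authors' deposited table, at 0.236 FPKM in Srf KO and 0.129 FPKM in WT (log2 fold 0.87 ± 0.46, q = 0.125).

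**Figure D1:**
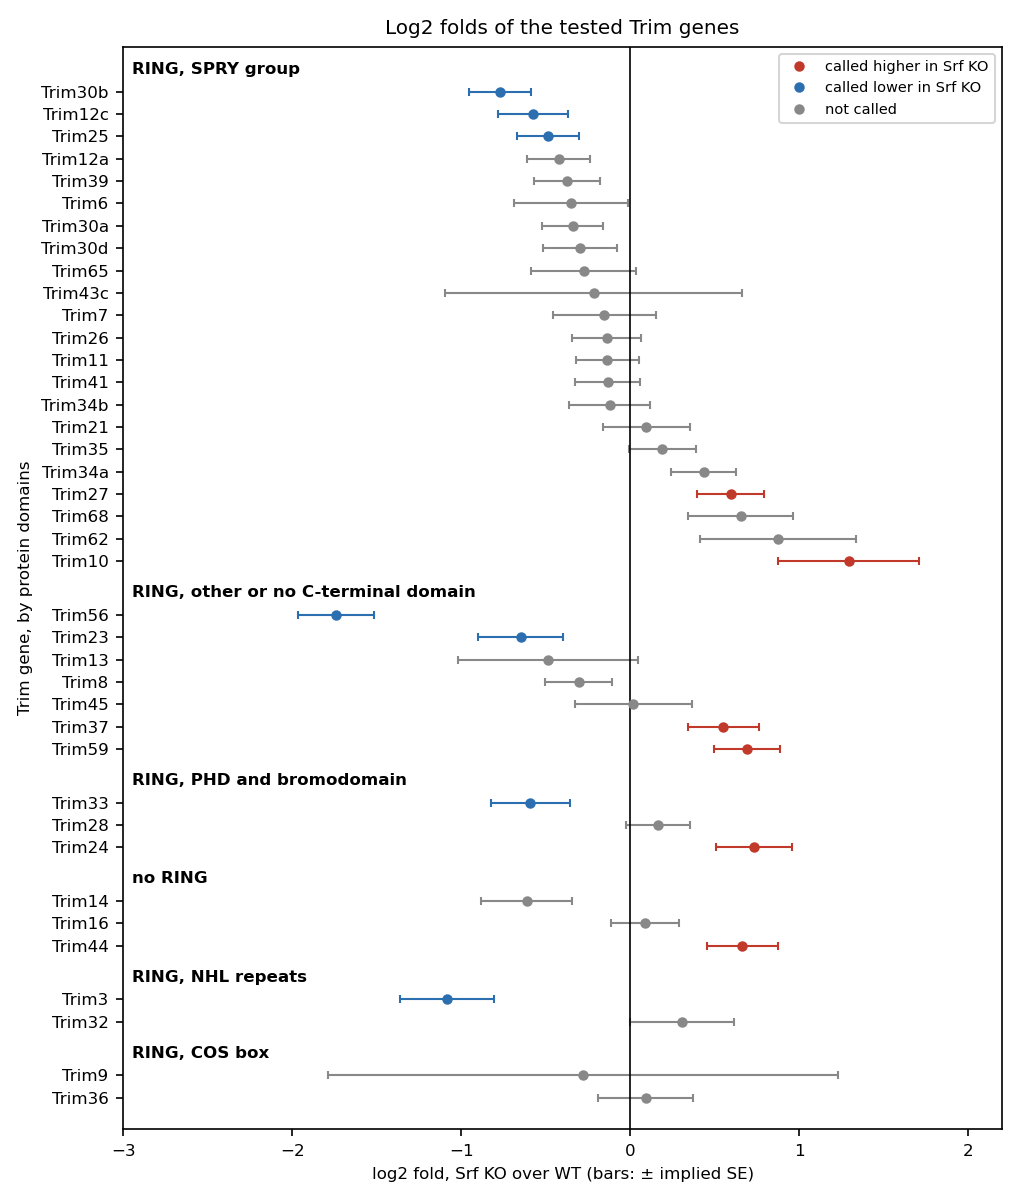
Log2 fold of each of the 39 tested Trim genes, Srf KO over WT, ordered within groups of protein domains. Points are the authors' pooled folds, bars are ± 1 implied standard error, red marks the 6 genes called higher and blue the 7 called lower, with Trim56 farthest to the left at -1.74 and Trim10 farthest to the right at 1.29.

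The family spans a wide range of levels in neutrophils. Trim12a, a mouse relative of the retroviral restriction factor TRIM5, was highest in both genotypes in the authors' deposited table, at 69.5 FPKM in Srf KO and 93.2 FPKM in WT. Below it in Srf KO came Trim12c, Trim30a, Trim30b and Trim11. In WT neutrophils the order below Trim12a was Trim30b, Trim12c, Trim30a and Trim11. The 5 highest Trim genes were thus the same in Srf KO and WT cells, and 4 of them lie in 1 cluster on chromosome 7. A level of 10 FPKM or more in both genotypes was reached by 13 Trim genes, and 9 were under 1 FPKM in both. Summed over all 65 listed Trim genes, tested or not, Trim expression in the authors' deposited table came to 482 FPKM in Srf KO and 579 FPKM in WT. The median level of the tested Trim genes was 5.92 FPKM in Srf KO and 7.79 FPKM in WT. Over all tested genes it was 6.39 and 6.36 FPKM in the same order.

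**Figure D2:**
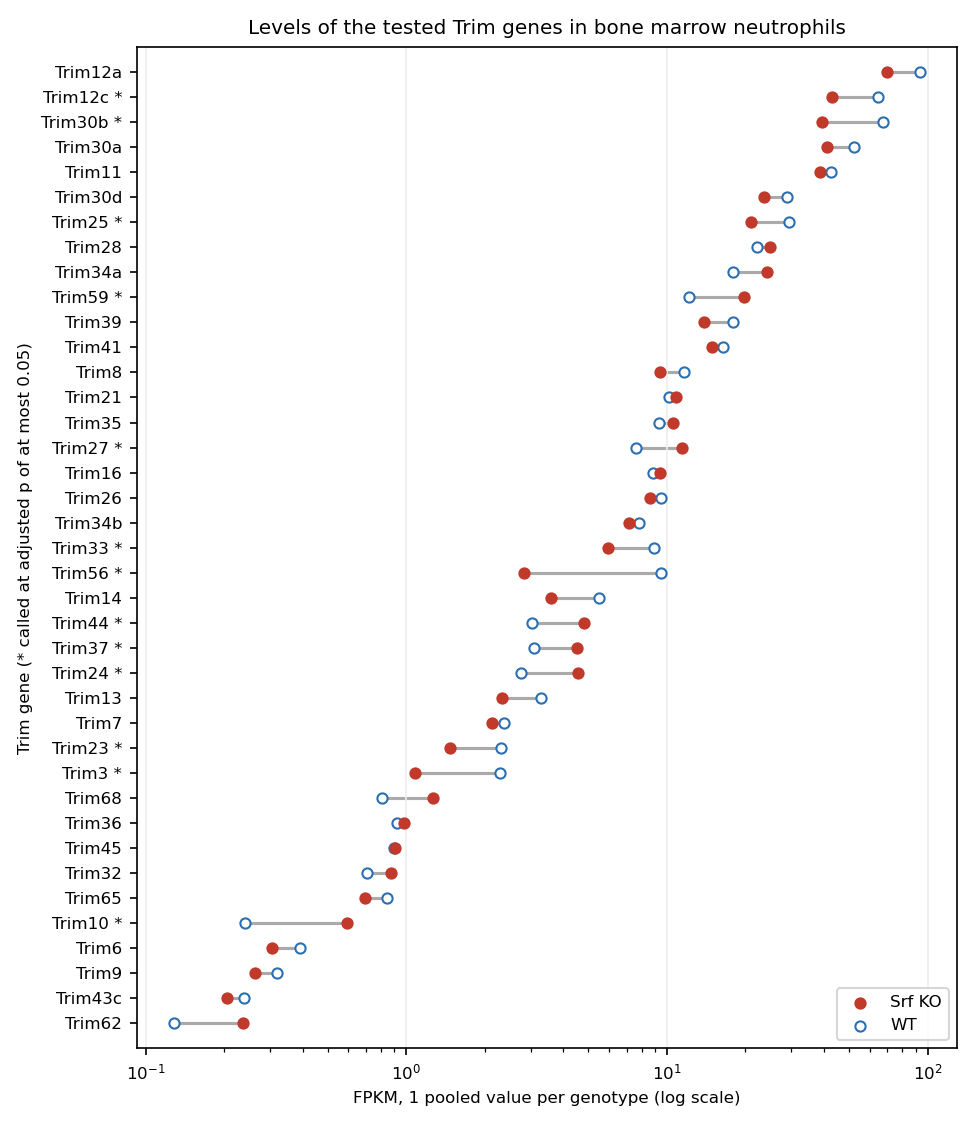
Pooled FPKM of the 39 tested Trim genes on a log axis, with 1 point for Srf KO and 1 for WT joined by a line for each gene and no error bar, since there is 1 value per genotype. Levels in Srf KO run between 0.206 FPKM for Trim43c and 69.5 FPKM for Trim12a, and the longest line is that of Trim56.

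By the mean of both genotypes, every untested Trim gene was below every tested one. The lowest tested Trim genes in the authors' deposited table were Trim43c, at 0.206 FPKM in Srf KO and 0.239 FPKM in WT, and Trim62, at 0.236 FPKM in Srf KO and 0.129 FPKM in WT. The highest untested ones in the authors' deposited table were Trim43b, at 0.184 FPKM in Srf KO and 0.169 FPKM in WT, and Trim46, at 0.166 FPKM in Srf KO and 0.163 FPKM in WT. In WT cells alone Trim62 lay below both of these untested genes. Trim38, Trim31 and Trim71 were among those listed at 0 in both genotypes.

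Trim56 changed more than any other tested Trim gene. It encodes a RING ligase without a SPRY domain that acts in antiviral signalling and has been tied to the cytosolic DNA sensors cGAS and STING. In the authors' deposited table it was at 2.84 FPKM in Srf KO and 9.49 FPKM in WT, 3.34-fold lower in Srf KO (log2 fold -1.74 ± 0.23, q = 9.72e-13). Its place among the 39 Trim levels was 25 in Srf KO and 16 in WT. The gene lies on the minus strand at chr5:137111286-137116207 (mm10). None of its transcript is shared with another Trim gene over any stretch of 50 bases, and no annotated exon of another gene overlaps it. The 1 isoform, start site and coding row of Trim56 hold the same FPKM values but were not tested in those tables, so Trim56 does not enter their counts.

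Members known for antiviral roles or induction by interferon were next compared as a list of 14 symbols, of which 12 were tested. The list was chosen with earlier results of these data known and need not hold every such member. Its split by direction depends on that choice. Of these 12, none was called higher in the authors' deposited table and 4 were called lower: Trim56, Trim30b, Trim12c and Trim25. The called share was 33.3% lower and 0% higher, beside 17.8% and 17.7% of all tested genes, and no test was run on the list. Levels were below WT in 10 of the 12, with Trim34a and Trim21 as the exceptions, and the median log2 fold was -0.38, beside 0.08 over all tested genes. Their summed level was 295 FPKM in Srf KO and 396 FPKM in WT.

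Trim25, which ubiquitinates the RNA sensor RIG-I, was at 20.9 FPKM in Srf KO and 29.3 FPKM in WT in the authors' deposited table (log2 fold -0.49 ± 0.18, q = 0.0271). Its call did not hold once folds were adjusted for transcript length, with the implied standard errors kept and the q-values recomputed over all genes (log2 fold -0.30, q = 0.199, between 0.00924 and 0.199 over all alternatives run). Trim21, the cytosolic antibody receptor, was at 10.8 FPKM in Srf KO and 10.1 FPKM in WT in the authors' deposited table (log2 fold 0.10 ± 0.26, q = 0.805). Trim14, a member without a RING finger that binds the adaptor MAVS, was at 3.60 FPKM in Srf KO and 5.50 FPKM in WT in the authors' deposited table and missed the threshold (log2 fold -0.61 ± 0.27, q = 0.0603). Trim14 passed it when folds were centred on the median of all genes or adjusted for length. Trim26 stood close to its WT level in the authors' deposited table, at 8.64 FPKM in Srf KO and 9.52 FPKM in WT (log2 fold -0.14 ± 0.20, q = 0.626).

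Of the 12, 7 belong to a cluster of 8 tested Trim genes that lie within chr7:104218795-104507849 (mm10): Trim6, Trim34a, Trim12a, Trim34b, Trim12c, Trim30b, Trim30a and Trim30d. They belong to the SPRY group and are known as local duplicates near Trim5; Trim12a is the short form without the SPRY domain. The cluster held 249 FPKM of Trim expression in Srf KO and 332 FPKM in WT. Of the 8 genes, 7 were below WT in the authors' deposited table, with a median log2 fold of -0.35, but only Trim30b and Trim12c were called lower (25% of the cluster, beside 17.8% of all tested genes) and none was called higher (beside 17.7%).

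Trim30b was at 39.5 FPKM in Srf KO and 67.4 FPKM in WT in the authors' deposited table (log2 fold -0.77 ± 0.18, q = 0.000214). Trim12c was at 43.1 FPKM in Srf KO and 64.3 FPKM in WT in the authors' deposited table (log2 fold -0.58 ± 0.21, q = 0.0188). Both were lower in Srf KO, and no other gene of the cluster passed the test. Trim12a, the most abundant, missed the threshold in the authors' deposited table (log2 fold -0.42 ± 0.19, q = 0.0605). It passed when folds were centred on the median of all genes (q = 0.0238) or adjusted for length (q = 0.00115), and over all alternatives run its q lay between 0.00115 and 0.0605. Trim30a, a brake on NF-kappaB signalling that targets the TAB2 and TAB3 adaptors, was at 41.3 FPKM in Srf KO and 52.3 FPKM in WT in the authors' deposited table (log2 fold -0.34 ± 0.18, q = 0.131). Trim34a went the other way without a call, at 24.2 FPKM in Srf KO and 17.9 FPKM in WT in the authors' deposited table (log2 fold 0.43 ± 0.19, q = 0.0633). Its neighbour Trim34b, with 7.16 FPKM in Srf KO and 7.79 FPKM in WT in the authors' deposited table, was not called (log2 fold -0.12 ± 0.24, q = 0.728). Trim6, the lowest of the cluster, was at 0.306 FPKM in Srf KO and 0.390 FPKM in WT in the authors' deposited table (log2 fold -0.35 ± 0.34, q = 0.434).

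Because these genes are young duplicates, reads can be hard to place. Of all windows of 50 bases in its transcript, Trim34b shared 59.0% with another Trim transcript and Trim34a 41.5%, in both cases with each other. Trim12a shared 31.2% and Trim12c 28.7%, mostly with Trim5, a gene not analysed here. Trim30d shared 15.4%, Trim30a 6.53% and Trim30b none. For Trim12c and Trim30d, which have several isoforms, only the isoform with the most FPKM over both genotypes was counted. How the authors' counting split such reads was not tested, so the values of Trim12a, Trim12c, Trim34a and Trim34b are less certain than those of Trim30b and Trim56.

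Promoters of Trim56 and of the called cluster genes Trim12c and Trim30b are shown, so that their start sites can be compared. That of Trim25, the other called member of the antiviral list, is not printed. Each runs over 300 bases on the gene's strand, 250 before the start and 50 after it, taken from RefSeq on build GRCm38.p6. Capitals mark the core of the interferon-stimulated response element (ISRE), searched on both strands as GAAA, any 2 bases and GAAA again. The windows are chr5:137116158-137116457 for Trim56, chr7:104353300-104353599 for Trim12c and chr7:104358597-104358896 for Trim30b, all on the minus strand.
Trim56: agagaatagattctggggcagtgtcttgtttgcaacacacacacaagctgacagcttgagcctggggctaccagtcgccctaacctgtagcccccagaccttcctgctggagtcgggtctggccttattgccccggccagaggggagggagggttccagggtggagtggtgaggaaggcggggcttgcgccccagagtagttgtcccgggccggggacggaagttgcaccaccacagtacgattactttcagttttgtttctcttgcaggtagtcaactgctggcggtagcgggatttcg
Trim12c: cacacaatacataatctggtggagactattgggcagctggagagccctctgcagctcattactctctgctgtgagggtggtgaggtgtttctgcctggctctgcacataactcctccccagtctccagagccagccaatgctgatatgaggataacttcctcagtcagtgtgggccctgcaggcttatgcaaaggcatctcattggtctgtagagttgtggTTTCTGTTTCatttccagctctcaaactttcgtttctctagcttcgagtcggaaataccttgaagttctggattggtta
Trim30b: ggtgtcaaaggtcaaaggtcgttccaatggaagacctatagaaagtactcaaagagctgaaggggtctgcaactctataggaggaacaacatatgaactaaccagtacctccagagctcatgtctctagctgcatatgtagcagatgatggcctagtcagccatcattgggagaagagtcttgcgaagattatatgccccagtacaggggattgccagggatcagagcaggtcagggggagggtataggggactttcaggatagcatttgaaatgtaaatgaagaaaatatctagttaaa

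The Trim12c window holds 1 ISRE core, which reads GAAACAGAAA on the strand opposite to the gene and begins at position -29 from the start site. The windows of Trim56 and Trim30b hold none in these letters. Trim56 starts within sequence of 58.7% G and C, Trim12c of 49% and Trim30b of 45%. RefSeq entries were found for 29 of the 39 Trim genes, and 7 of these (24.1%) had an ISRE core: Trim21, Trim34a, Trim12a, Trim12c, Trim30a, Trim30d and Trim26. The same letters occur in 3.44% of all 32851 promoter windows and in 3.90% of the tested genes with an entry. Of the 7 genes, 5 lie in the chromosome 7 cluster. Trim12c alone of the 7 was called, beside 35.5% of all tested genes called either way. A CArG box was searched on both strands as well and was found in none of the 29 Trim genes. It was found in 1.68% of the tested genes with an entry and in 1.63% of all windows. At so low a share, finding none among 29 genes says little about the family. A match here is a run of letters and does not show binding.

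Of the cluster's genes Trim30d and Trim12c have 2 isoform rows each, and in both genes the rows differed in direction. Over the family, 7 of 45 tested isoform rows were called higher and 7 lower in the authors' deposited table, 15.6% in each direction, beside 13.1% of all tested isoforms higher and 14.0% lower. Of the Trim genes 29 have 1 isoform in the table and 10 have several. Rows of start sites were called higher in 6 of 41 tested and lower in 6, beside 15.1% and 16.1% of all such rows, and rows of coding sequences in 7 of 41 and 7, beside 14.4% and 15.8%. Most called rows repeat the gene's own result, and Trim12c, Trim30d and Trim33 are those where isoforms add to it.

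Trim30d was not called as a gene, with 23.5 FPKM in Srf KO and 28.9 FPKM in WT in the authors' deposited table (log2 fold -0.30 ± 0.22, q = 0.291). Its isoforms went in opposite directions. NM_199146 was at 7.05 FPKM in Srf KO and 23.0 FPKM in WT in the authors' deposited table, 3.27-fold lower in Srf KO (log2 fold -1.71 ± 0.28, q = 3.99e-08). NM_001167828 was at 16.5 FPKM in Srf KO and 5.88 FPKM in WT in the authors' deposited table, 2.80-fold higher in Srf KO (log2 fold 1.49 ± 0.53, q = 0.0213). The longer coding isoform, NM_199146, thus made up 30.0% of the gene's FPKM in Srf KO and 79.7% in WT.

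The Trim30d isoforms differ at both ends of the message. NM_199146 has 8 exons and 1491 coding bases in GENCODE on GRCm38, and its exon 2, at chr7:104487576-104488051, carries 420 coding bases with the annotated start codon. NM_001167828 lacks that exon, starts translation further on and has 1041 coding bases. In SPRY members of the family this amino-terminal stretch usually encodes the RING finger and the B-box, and the domains of these proteins were not examined here. NM_001167828 also has the longer last exon, with 2622 bases against 792 bases in NM_199146, so the transcripts end 1830 bases apart. Of the windows of 50 bases that belong to one isoform only, NM_001167828 has 1902, none of them found in another Trim gene, and NM_199146 has 524, of which 3.24% are. Among all genes with at least 2 tested isoforms, 51 of 1943 (2.62%) had isoforms called in both directions, and among the 7 Trim genes with at least 2 tested isoforms Trim30d was the 1 that did.

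Trim12c showed a like split that is only partly called. NM_001146007 was at 14.0 FPKM in Srf KO and 51.8 FPKM in WT in the authors' deposited table, 3.71-fold lower in Srf KO (log2 fold -1.89 ± 0.27, q = 2.69e-10). NM_175677 was at 29.1 FPKM in Srf KO and 12.4 FPKM in WT in the authors' deposited table and was not called (log2 fold 1.23 ± 0.61, q = 0.123). The share of NM_001146007 in the gene's FPKM was 32.4% in Srf KO and 80.6% in WT. Both isoforms have 8 exons, the same annotated start codon and 1491 coding bases, and their start sites lie 24 bases apart. They differ mainly at the end, where the last exon has 2620 bases in NM_001146007 and 1498 bases in NM_175677. The short isoform has just 34 windows of 50 bases of its own, of which 73.5% also occur in another Trim gene, so its level rests on little sequence. NM_001146007 has 1262 such windows, of which 16.5% also occur in another Trim gene. Exons of Trim12c overlap Gm27995 on the same strand as well, so the fold of NM_001146007 carries this uncertainty too. The change in isoform share was not tested for Trim12c or Trim30d, and no value of a single sample exists here to test it.

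Trim33, also called TIF1-gamma, is a PHD and bromodomain protein that acts on SMAD4 in TGF-beta signalling. Both of its isoforms were below WT. As a gene it was at 5.92 FPKM in Srf KO and 8.92 FPKM in WT in the authors' deposited table (log2 fold -0.59 ± 0.23, q = 0.0363). NM_001079830 was at 2.12 FPKM in Srf KO and 3.65 FPKM in WT in the authors' deposited table (log2 fold -0.78 ± 0.32, q = 0.0491). NM_053170, which has an extra coding exon of 51 bases, was at 3.80 FPKM in Srf KO and 5.27 FPKM in WT in the authors' deposited table and was not called (log2 fold -0.47 ± 0.25, q = 0.145). The call on the gene did not hold after adjustment for transcript length (log2 fold -0.28, q = 0.378, between 0.0164 and 0.378 over all alternatives run).

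**Figure D3:**
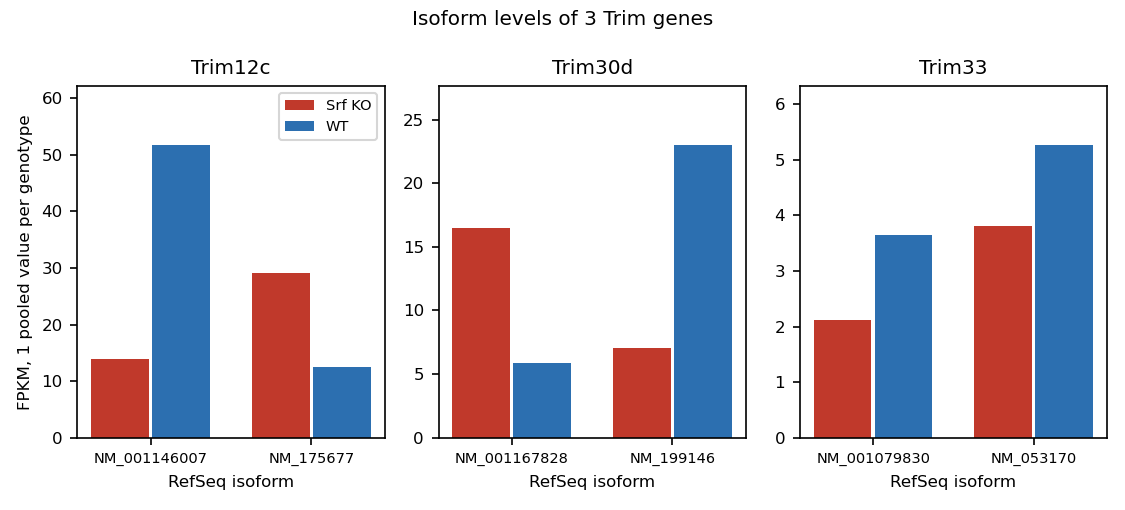
Pooled FPKM of the isoforms of Trim12c, Trim30d and Trim33, with Srf KO to the left of WT for each isoform and no error bar, since there is 1 value per genotype. In Trim12c and Trim30d the isoform that is higher in WT is the lower one in Srf KO, whereas both isoforms of Trim33 are lower in Srf KO.

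The other genes called lower lie outside the antiviral list. Trim3, an NHL-repeat protein best known from brain, was at 1.08 FPKM in Srf KO and 2.29 FPKM in WT in the authors' deposited table (log2 fold -1.08 ± 0.28, q = 0.000740). It lies at chr7:105610470-105633499 (mm10), outside the cluster, and its difference on the log2(FPKM + 1) scale was -0.66. Trim32, the other tested NHL member and a muscle ligase, was at 0.873 FPKM in Srf KO and 0.706 FPKM in WT in the authors' deposited table, with no call (log2 fold 0.31 ± 0.31, q = 0.459). Trim23, which carries a GTPase domain of the ARF type at its carboxyl end, was at 1.48 FPKM in Srf KO and 2.31 FPKM in WT in the authors' deposited table (log2 fold -0.65 ± 0.25, q = 0.0326). The call on Trim23 did not hold after adjustment for transcript length (log2 fold -0.56, q = 0.0710, between 0.0155 and 0.0710 over all alternatives run with a test). On the log2(FPKM + 1) scale its difference was -0.42.

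Genes called higher in Srf KO came from several domain groups and lie on 6 different chromosomes. Trim10, a protein of erythroid differentiation in mouse, had the largest rise: 0.591 FPKM in Srf KO and 0.241 FPKM in WT in the authors' deposited table, 2.45-fold higher in Srf KO (log2 fold 1.29 ± 0.42, q = 0.00821). Its level was under 1 FPKM in both genotypes, and on the log2(FPKM + 1) scale its difference was 0.36, a fold given without a test. Of 16 erythroid markers in the authors' deposited table, 13 were called higher and 3 were not called. Ermap was at 1.52 FPKM in Srf KO and 0.362 FPKM in WT, and Gata1 at 1.62 FPKM in Srf KO and 0.451 FPKM in WT. The most abundant, Hbb-b2, was not called, at 158 FPKM in Srf KO and 128 FPKM in WT (log2 fold 0.30 ± 0.29, q = 0.446). The part of these markers in the rise of Trim10 was not tested. Trim58, another erythroid member, was not tested and was listed at 0.0544 FPKM in Srf KO and 0.0476 FPKM in WT in the authors' deposited table.

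Trim24, or TIF1-alpha, a nuclear receptor coregulator and relative of Trim33, was at 4.56 FPKM in Srf KO and 2.74 FPKM in WT in the authors' deposited table (log2 fold 0.73 ± 0.23, q = 0.00549). It thus rose while Trim33 was called lower. Trim28, also KAP1, the corepressor that KRAB zinc finger proteins recruit to silence retroelements, completes the tested PHD and bromodomain group. Trim28 was at 24.7 FPKM in Srf KO and 22.1 FPKM in WT in the authors' deposited table and was not called (log2 fold 0.16 ± 0.19, q = 0.525).

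Trim59, which is anchored in membranes, was at 19.7 FPKM in Srf KO and 12.2 FPKM in WT in the authors' deposited table (log2 fold 0.69 ± 0.20, q = 0.00249), the highest level among the genes called higher. Trim44 lacks a RING finger and has a zinc finger of the ubiquitin protease type. It was at 4.82 FPKM in Srf KO and 3.04 FPKM in WT in the authors' deposited table (log2 fold 0.66 ± 0.21, q = 0.00749). Trim27, a SPRY ligase also called RFP, was at 11.5 FPKM in Srf KO and 7.59 FPKM in WT in the authors' deposited table (log2 fold 0.59 ± 0.20, q = 0.0108). Trim37, whose loss in people causes mulibrey nanism and which curbs the formation of extra centrosomes, was at 4.51 FPKM in Srf KO and 3.08 FPKM in WT in the authors' deposited table (log2 fold 0.55 ± 0.21, q = 0.0300). The Trim37 call was lost when folds were centred on the median of all genes (log2 fold 0.47, q = 0.0670, between 0.00306 and 0.0670 over all alternatives run).

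By domain, the 22 tested members of the SPRY group held 2 called higher (9.09%) and 3 called lower (13.6%) in the authors' deposited table, beside 17.7% and 17.8% of all tested genes, with a median log2 fold of -0.15. The group counts Trim12a despite its short form. The 7 RING members with another or no carboxyl-terminal domain held 2 called higher and 2 lower, 28.6% each way, with a median of -0.31. Of the 3 members without a RING finger Trim44 was called higher, and Trim14 and Trim16 were not called. Neither tested COS-box member, Trim9 or Trim36, was called. No domain group changed in 1 direction alone with more than 1 called gene.

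Several of the most abundant members were not called. Trim11, a SPRY ligase, was at 38.7 FPKM in Srf KO and 42.4 FPKM in WT in the authors' deposited table (log2 fold -0.13 ± 0.19, q = 0.604). Trim39 was at 13.8 FPKM in Srf KO and 17.9 FPKM in WT in the authors' deposited table (log2 fold -0.37 ± 0.20, q = 0.122). Trim41 was at 14.9 FPKM in Srf KO and 16.3 FPKM in WT in the authors' deposited table (log2 fold -0.13 ± 0.19, q = 0.624). Exons of Trim41 overlap Rack1 in the annotation, and the library kit carries no strand information, so reads in the overlapping stretch cannot be assigned to either gene. Overlap was checked for 1 isoform per gene, that with the most FPKM over both genotypes. On that basis exons overlap those of another gene, on either strand, in 9 of the 39 Trim genes. In Trim12c and Trim65 the overlap is on the same strand only. Of the 9 only Trim12c was called, beside 35.5% of all tested genes called either way. A missed threshold does not show that these genes kept their WT level.

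**Figure D4:**
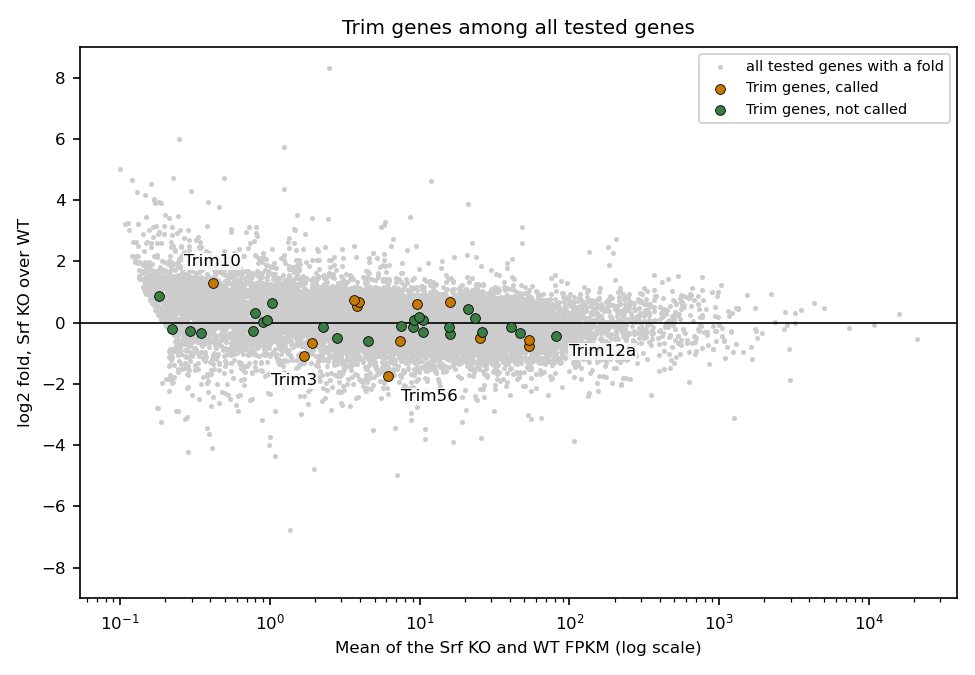
Log2 fold, Srf KO over WT, against the mean of the 2 pooled FPKM values on a log axis, for all tested genes with a fold (grey) and for the Trim genes (orange called, green not called). The Trim genes lie within the grey cloud at all levels, with Trim56 and Trim3 in its lower part and Trim10 in its upper part.

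Genes that work with TRIM proteins were read from lists of names. Of 3 tested family members under other symbols, Pml, the organiser of nuclear bodies, was called higher in the authors' deposited table, with 7.02 FPKM in Srf KO and 4.69 FPKM in WT (log2 fold 0.58 ± 0.22, q = 0.0292). Mefv, which encodes pyrin, an inflammasome sensor of myeloid cells, was called lower in the authors' deposited table, with 12.7 FPKM in Srf KO and 17.8 FPKM in WT (log2 fold -0.49 ± 0.20, q = 0.0429). Mid1, a COS-box ligase of microtubules, was not called. The called share was thus 33.3% each way, beside 17.7% higher and 17.8% lower of all tested genes.

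Among 19 tested genes of nucleic acid sensing and interferon signalling, 3 were called higher (15.8%) and 4 lower (21.1%) in the authors' deposited table, with a median log2 fold of -0.17. These shares are near the 17.7% and 17.8% of all tested genes. Isg15, the ubiquitin-like modifier, was at 85.9 FPKM in Srf KO and 54.0 FPKM in WT in the authors' deposited table (log2 fold 0.67 ± 0.20, q = 0.00368). Uba7, the enzyme that activates Isg15, went the other way, at 23.8 FPKM in Srf KO and 42.4 FPKM in WT in the authors' deposited table (log2 fold -0.84 ± 0.19, q = 7.20e-05). The interferon receptor subunit Ifnar1 was lower, with 12.4 FPKM in Srf KO and 20.99 FPKM in WT in the authors' deposited table (log2 fold -0.76 ± 0.18, q = 0.000318). Usp18, which removes Isg15 from proteins, was higher, with 27.0 FPKM in Srf KO and 16.0 FPKM in WT in the authors' deposited table (log2 fold 0.76 ± 0.20, q = 0.00112). Also called were E330016A19Rik, which RefSeq lists as the DNA sensor Cgas, on the higher side, and Traf3 on the lower side. Ddx58, which encodes the Trim25 substrate RIG-I, was not called, in the authors' deposited table (log2 fold -0.40, q = 0.0762).

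E2 enzymes load the ubiquitin that RING ligases pass on, and the list of them also holds E2 variants and the E2 of Isg15. Of its 14 tested genes, 4 were called higher (28.6%) and 1 lower (7.14%) in the authors' deposited table. All tested genes stood at 17.7% and 17.8% in the same order, and the median log2 fold of the list was 0.22. Ube2l6, the E2 of Isg15, was at 66.8 FPKM in Srf KO and 33.7 FPKM in WT in the authors' deposited table (log2 fold 0.99 ± 0.19, q = 4.12e-06). Ube2e3, Ube2v2 and Ube2k were the others called higher. Ube2e2, the 1 called lower, was at 0.672 FPKM in Srf KO and 1.78 FPKM in WT in the authors' deposited table (log2 fold -1.41 ± 0.33, q = 0.000191). Ube2d3, a common partner of RING ligases and the most abundant of the list, was not called, at 149 FPKM in Srf KO and 175 FPKM in WT in the authors' deposited table (log2 fold -0.23 ± 0.18, q = 0.339).

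Of the 9 tested partners of Trim28 in heterochromatin, 3 were called higher (33.3%) and 2 lower (22.2%) in the authors' deposited table, beside 17.7% and 17.8% of all tested genes, with a median log2 fold of 0.05. Cbx3, which encodes HP1-gamma, was at 68.8 FPKM in Srf KO and 41.9 FPKM in WT in the authors' deposited table (log2 fold 0.72 ± 0.19, q = 0.000861). Atf7ip, a cofactor of the methyltransferase Setdb1, was at 13.3 FPKM in Srf KO and 29.0 FPKM in WT in the authors' deposited table (log2 fold -1.12 ± 0.19, q = 5.86e-08). Cbx5 and Hdac2 were the others called higher, and Chd4 the other called lower. Setdb1 itself was at 8.66 FPKM in Srf KO and 8.55 FPKM in WT in the authors' deposited table (log2 fold 0.02, not called).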

How the data were processed

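Per the labels' protocols, libraries came from the TruSeq RNA v2 kit, which loses strand information. The submitters' processing notes name the mm10 build, TopHat2 2.0.0, CASAVA 1.8.1 and Cufflinks 2.0.0, with no settings. The deposited tables of genes, isoforms, start sites and coding sequences give 1 FPKM per genotype, pooled by the authors over 2 Srf KO and 2 WT samples, so precision rests on the authors' model and depth is unknown. Per the file headers their log2 fold puts WT over KO, so the sign was reversed here. The authors deposited with it a test statistic, a score without unit, and its p-value and q-value. In each of the 4 tables, p-values were checked to equal the normal tail of the statistic, and calls to be those rows whose q-value did not exceed 0.05. A fit of per-sample values was planned and could not be had from pooled values, so the authors' own test was used.

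Implied standard errors are the log2 fold divided by the statistic, without sign. Of 23284 genes 12634 had status OK, 10467 were not tested, 151 were marked as low data, 26 as failed and 6 as holding too many reads. Lengths, exons and strand come from GENCODE M21 (GRCm38), with a length for 98.1% of tested genes and all 39 Trim genes, and promoters from RefSeq. Alternatives were thresholds of 0.01 and 0.10, filters at 1 and 5 FPKM, a 2-fold minimum, pseudocounts of 1 and 0.1, centring on the median, and subtraction of the running median over 50 length bins smoothed over 5. The recomputed p-values and the length adjustment were run on simulated folds and lengths, with a spread equal to the implied standard errors. Such a run checks the calculation and cannot show that these errors or the adjustment suit the data. The rule for naming genes took all called Trim genes, the 8 most abundant uncalled ones and those with a called isoform row. It also took Srf, and per list up to 4 called genes and the most abundant member, not all of which are given. Trim6, Trim14, Trim21, Trim26, Trim32, Trim34b, Trim58, Trim62, Ddx58, Setdb1 and the genes at the edge of testing were added after their values were seen. Gp6 and some genes named without values fall outside the rule as well, among them E330016A19Rik, Traf3, Ube2k, Cbx5, Mid1, Trim9, Trim16 and Trim36. The result of 1 listed gene is not reported here, though the counts include it. The Trim genes and all gene lists were chosen with earlier results of these data known. Python 3.11.15, numpy 2.4.6, pandas 2.3.3 and scipy 1.17.1 were used, with matplotlib 3.10.9 for the plots.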

Additional observations from a re-analysis of the deposited data

How the results depend on the processing

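With 1 pooled value per genotype, depth, replicate spread and the effect of 1 sample could not be examined, and leaving out a sample was not run. No paired analysis was possible because the tables carry no value of a single sample. No Trim gene taken by the naming rule changed direction under the alternatives run. Direction was not checked for the other Trim genes or for the gene lists. The counts of 6 Trim genes called higher and 7 lower became 5 and 9 after centring, 6 and 6 after length adjustment, 8 and 9 at a q-value of 0.10 and 5 and 7 with a filter at 1 FPKM. At a q-value of 0.01 they were 4 higher and 3 lower, and the isoform counts 3 higher and 4 lower. With a filter at 5 FPKM, 2 genes were called higher and 5 lower, and of isoforms 3 higher and 4 lower. With a 2-fold minimum 1 gene was higher and 2 lower, and 2 isoforms higher and 3 lower. The share of Trim genes called, beside that of all genes, was 17.9% and 23.9% at a q-value of 0.01, 43.6% and 43.1% at 0.10, and 31.8% and 42.6% with a filter at 5 FPKM. The median log2 fold of the Trim genes ran between -0.26 after length adjustment and -0.11 with a pseudocount of 1. Under the alternatives that recompute calls for genes, Trim56 was called in all, Trim3 in all except the filter at 5 FPKM, which removed it, and Trim10 in all except both filters, which removed it. Pseudocounts gave folds without a call. Folds depended on transcript length over all genes, with a median log2 fold of 0.29 among transcripts of up to 2018 bases, 0.08 among those of 2019 to 3550 bases and -0.14 among longer ones. Length adjustment moved the log2 fold of Trim56 to -1.42, with a q of 1.14e-08. Over all alternatives run its q lay between 6.34e-14 and 1.14e-08. The length used for Trim56, 9279 bases in GENCODE, exceeds the span of the authors' locus, chr5:137111286-137116207. Its adjusted fold and q therefore rest on a length that cannot be that of the authors' transcript.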
